A study of Mus musculus with 11 samples.

Results

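The tetraspanin genes are the protein-coding mouse genes whose symbol is Tspan followed by a number, together with *Cd9*, *Cd37*, *Cd53*, *Cd63*, *Cd81*, *Cd82* and *Cd151*. The rule gave 27 members of the 34728 genes in the expression table, 20 with a Tspan symbol and 7 with a Cd symbol. The antisense genes *Tspan2os* and *Tspan32os* match the symbol but do not code for protein and were left out. The 3 groups were sorted GFP+ islet cells of 8-week-old male mice on a C57BL/6 x 129SV background, and all of them carried RIP-Cre, which is Cre driven by the rat insulin promoter, and the Rosa26GFP reporter. The 3 WT libraries came from littermates with intact *Raptor* (Raptor+/+), so Cre and GFP are shared by the controls and the mutants. The 4 diabetic libraries came from βRapKOGFP mice (Raptor-/-, RIP-Cre, Rosa26GFP), which lack the mTORC1 subunit Raptor in cells that express the insulin promoter. The 4 euglycemic libraries came from βRapKOGFP mice that had received insulin from an implant for 4 weeks, and their columns in the table, named KI, were matched to them by reading KI as initials of KO and insulin. Whether a library is 1 animal or a pool is not stated in the sources used here, so the p-values measure the spread between these libraries.

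Tetraspanins are small proteins that cross the membrane several times and bind other membrane proteins, such as integrins, immunoglobulin-like EWI proteins and the protease ADAM10, gathering them into patches of membrane. Some sit mainly at the cell surface, others mainly in late endosomes, lysosomes and secreted vesicles, where CD9, CD63 and CD81 are the usual markers of exosomes. In pancreatic islets the family includes TSPAN7, an autoantigen of type 1 diabetes, and TSPAN8, a surface protein that is also known from epithelial cells.

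Expression was deposited as FPKM, fragments per kilobase of transcript, scaled to the fragments mapped in the library, so levels can be compared between genes. The depth inferred from the values was 9507369 to 16659526 fragments per library, and 1 fragment per kilobase equals 0.0600 to 0.105 FPKM. *Rptor*, the gene of Raptor, had an FPKM of 0.948 to 1.79 in WT, 0.485 to 0.937 in diabetic and 0.423 to 0.623 in euglycemic libraries. The mutant values all lay below the WT values, though by a narrow margin for diabetic replicate 1. That library stood apart, with 25711 genes above 0 against 13095 to 17329 in the other 10 libraries, and euglycemic replicate 4 had the fewest. The 8 β-cell markers summed to 116800 to 206400 FPKM over all libraries, nearly all of it from the insulin genes and *Iapp*, and only 2 of the 8 in diabetic and 1 in euglycemic libraries had a mean above that of WT. The glucagon gene *Gcg*, which marks α-cells, was at 734.1 to 2116 FPKM in WT, 3432 to 14073 in diabetic and 4093 to 22921 in euglycemic libraries. In bulk RNA a change in the number of cells of a type and a change in RNA per cell cannot be told apart.

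A few tetraspanin genes made up most of the expression of the family. *Cd63*, whose product marks lysosomes and secretory vesicles, had the highest mean over the 11 libraries, an FPKM of 596.8. *Tspan3* followed with a mean FPKM of 277.6, *Tspan13* with 265.7, *Cd81* with 128.9 and *Tspan31* with 113.3. The 5 highest members of each library held 84.2 to 89.9% of its summed tetraspanin FPKM. Below them came *Tspan15* with a mean FPKM of 64.6, *Tspan7* with 31.6 and *Tspan8* with 30.4. The 12 members from *Tspan33* down to *Tspan4* had means between 10.9 and 0.987 FPKM. The last 7, *Tspan1*, *Cd53*, *Tspan18*, *Tspan11*, *Cd37*, *Tspan32* and *Tspan10*, had means of 0.452 or less, and *Tspan10* was listed at 0 in all 11 libraries.

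**Figure D1:**
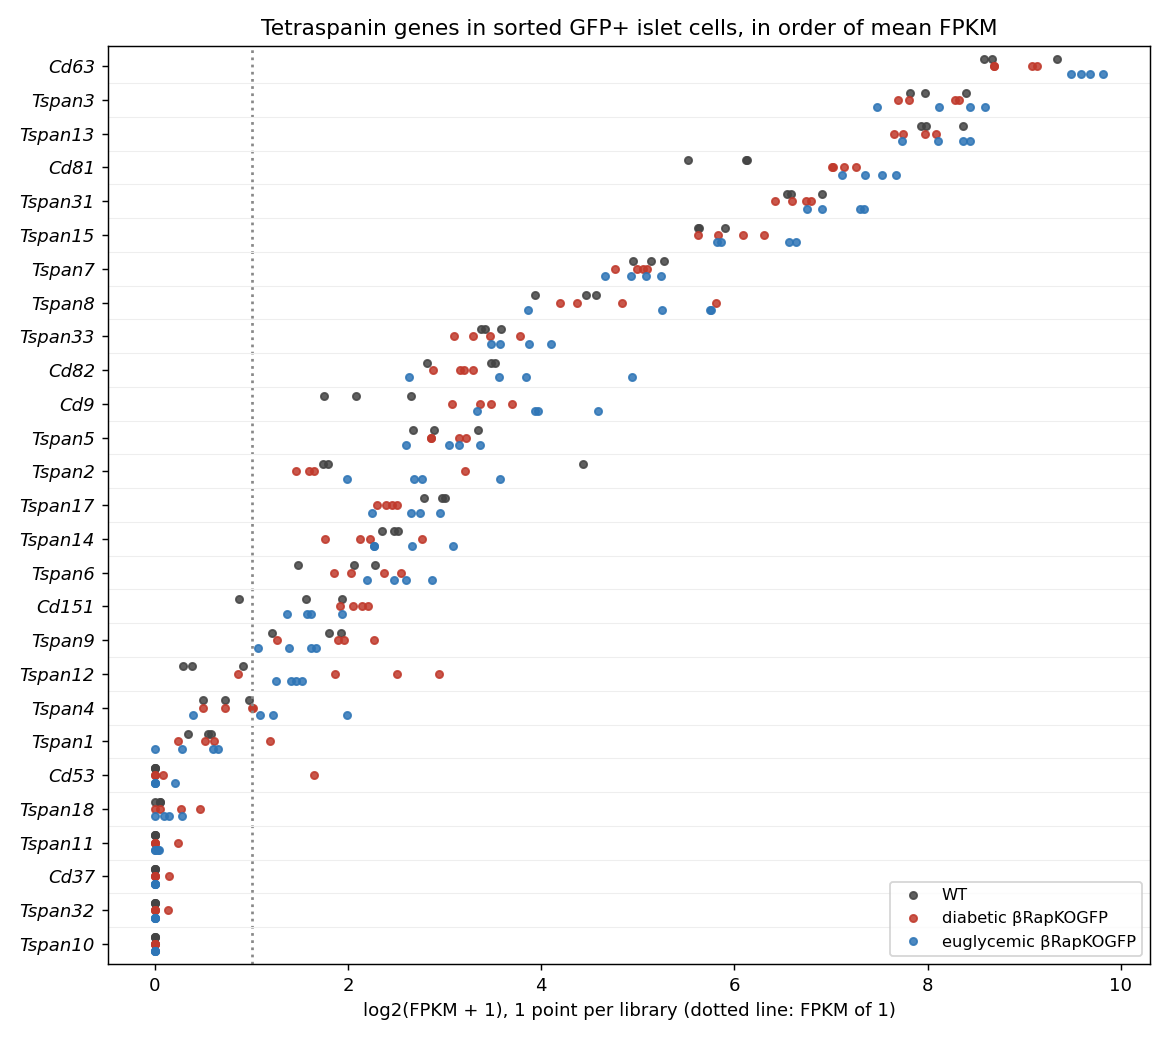
Level of each of the 27 tetraspanin genes in each of the 11 libraries, as log2(FPKM + 1) on the horizontal axis, with genes in order of mean FPKM and 1 point per library (WT grey, diabetic βRapKOGFP red, euglycemic βRapKOGFP blue). *Cd63* is at the top and *Tspan10*, at 0 in all libraries, at the bottom, and the red and blue points of *Cd81* and *Cd9* all lie to the right of the grey ones.

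The summed FPKM of the family was 1349 ± 258 (SD, n = 3) in WT. It was 1401 ± 126 (SD, n = 4) in the diabetic group and 1921 ± 258 (SD, n = 4) in the euglycemic group. The WT sums were 1644, 1235 and 1167, the diabetic sums 1285, 1328, 1569 and 1421, and the euglycemic sums 2071, 2166, 1863 and 1584. WT and euglycemic libraries overlapped only through WT replicate 1, which was above euglycemic replicate 4. The make-up of the sum also differed between groups. *Cd81* held 4.73 ± 1.74% (SD, n = 3) of it in WT. In the mutants it held 9.82 ± 0.758% (SD, n = 4) when diabetic and 8.91 ± 0.602% (SD, n = 4) when euglycemic, and every mutant library was above every WT library. *Tspan13* held 20.4 ± 0.431% (SD, n = 3) in WT. In the mutants it held 16.7 ± 1.13% (SD, n = 4) when diabetic and 15.0 ± 1.21% (SD, n = 4) when euglycemic, with every mutant library below every WT library. These are shares of a sum, so a larger share of one gene lowers those of the others.

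**Figure D2:**
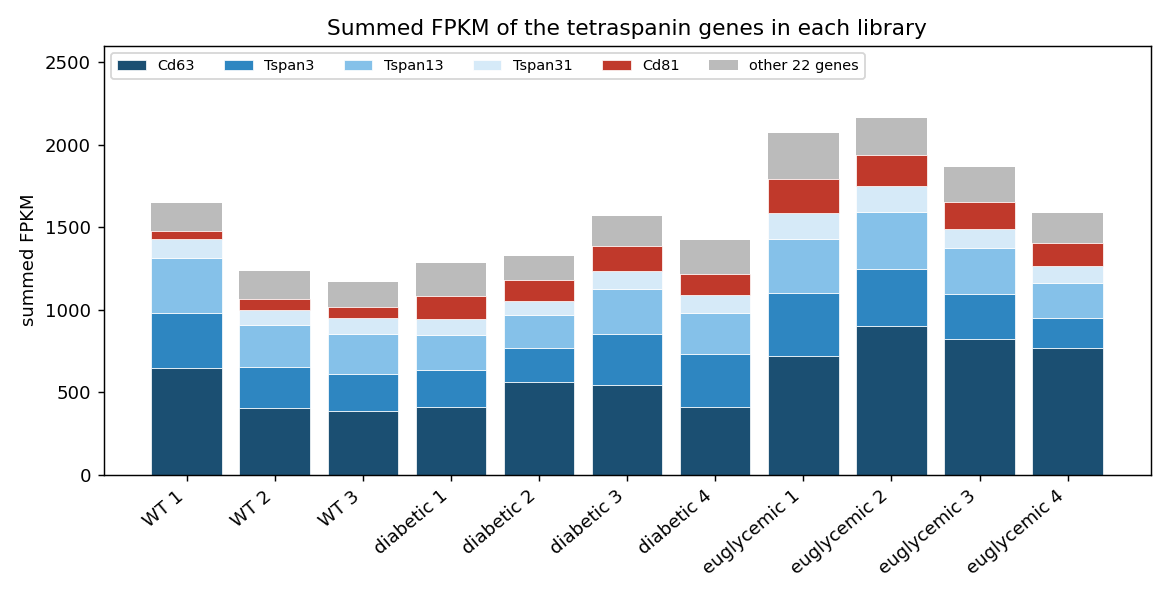
Summed FPKM of the tetraspanin genes in each library, with the 5 members of highest mean as colored segments and the other 22 together in grey. The sums run from 1167 in WT replicate 3 to 2166 in euglycemic replicate 2, and the red *Cd81* segment is larger in the 8 mutant libraries than in the 3 WT libraries.

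Differences were tested with limma on log2(FPKM + 1), with Benjamini-Hochberg adjustment over the 11251 genes that reached an FPKM of 1 in 3 or more libraries. A gene was called where the change was 1.5-fold or more and the adjusted p was 0.05 or less. Of the 27 members 20 passed this minimum. In diabetic against WT, 1 of the 20 was called, *Cd81*, beside 0.969% of all genes tested. In euglycemic against WT, *Cd81* and *Cd9* were called, 2 of 20, beside 0.551% of all genes. With all 8 mutant libraries against WT the same 2 genes were called, beside 1.05% of all genes. Each of these calls was a rise. Between diabetic and euglycemic libraries 0 of the 20 were called, beside 0.00889% of all genes, which is 1 gene. The comparisons with WT share the WT libraries and are not independent of each other.

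Without adjustment and without a fold criterion, a p of 0.05 or less was found for 5 of 20 members in diabetic against WT, beside 11.9% of all genes tested, and 5 of 20 in euglycemic against WT, beside 13.9%. There were 2 of 20 in diabetic against euglycemic, beside 20.6% of all genes, and 4 of 20 in all mutant against WT, beside 11.3%. Groups did not overlap for 3 of 20 members in diabetic against WT, beside 13.5% of all genes, for 4 of 20 in euglycemic against WT, beside 10.9%, for 1 of 20 in diabetic against euglycemic, beside 14.3%, and for 2 of 20 in all mutant against WT, beside 3.68%. The median log2 fold change of the 20 members was 0.04 in diabetic against WT, where that of all genes tested was 0.01. In euglycemic against WT it was 0.35, with 17 of 20 members above 0, where the median of all genes was -0.01 and 49.0% were above 0. In diabetic against euglycemic the members' median was -0.32, with 17 of 20 below 0, where the median of all genes was 0.01. These counts and medians describe the family and were not tested as a set.

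**Figure D3:**
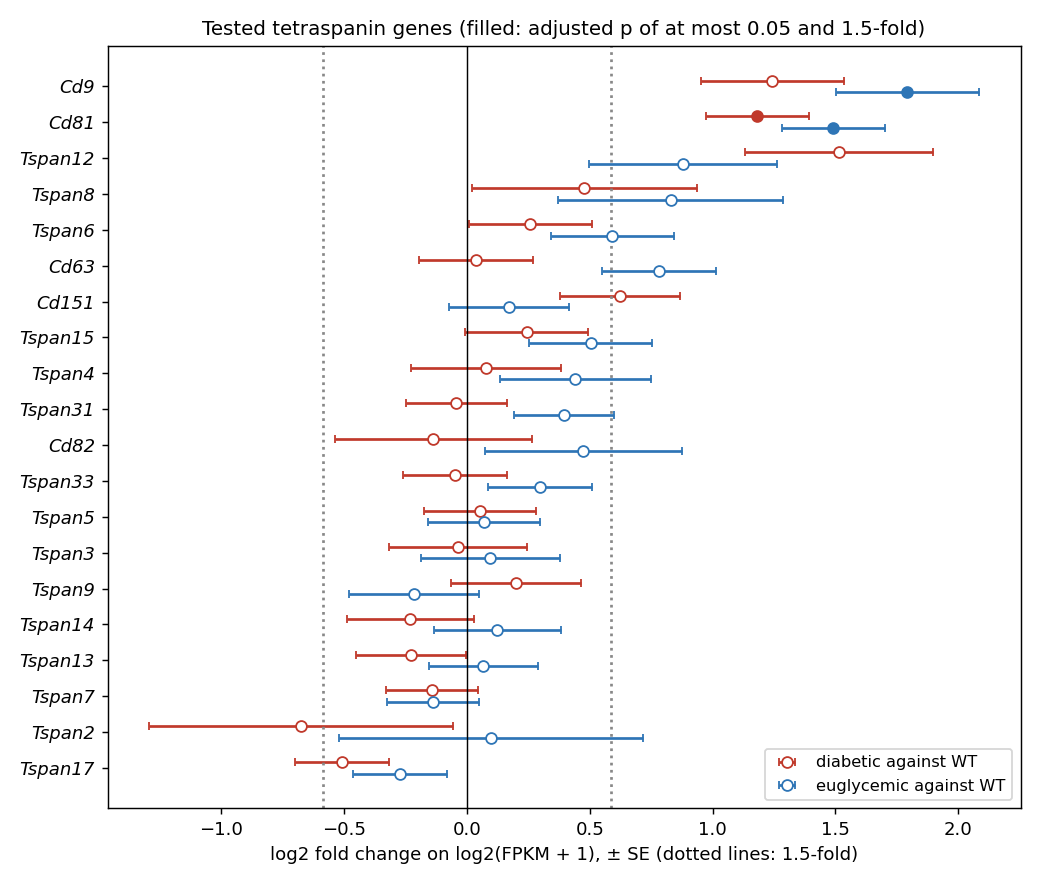
Log2 fold change ± SE of the 20 tested tetraspanin genes on the log2(FPKM + 1) scale, for diabetic (red) and euglycemic (blue) against WT, in order of the change with all mutant libraries. Filled points had an adjusted p of 0.05 or less and 1.5-fold or more (*Cd81* in both comparisons, *Cd9* in euglycemic against WT), and open points did not.

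The first group holds the tetraspanins best known for binding integrins and EWI proteins at the surface and for marking vesicles, *Cd9*, *Cd63*, *Cd81*, *Cd82* and *Cd151*. All 5 were tested, and their median log2 fold change was 0.62 in diabetic and 0.78 in euglycemic against WT. *Cd81* encodes a tetraspanin that pairs with EWI proteins at the cell surface. It lies on chromosome 7 of GRCm38, plus strand, from 143052739 to 143067934. Its FPKM was 45.0, 68.9 and 68.7 in the WT libraries, 139.6, 128.3, 152.1 and 128.7 in the diabetic libraries, and 203.1, 184.0, 162.0 and 137.2 in the euglycemic libraries. The lowest mutant value was well above the highest WT value, and diabetic and euglycemic libraries overlapped. Mean FPKM was 2.26 times that of WT in diabetic and 2.82 times in euglycemic libraries. On the log2 scale it differed by 1.18 ± 0.21 (SE) in diabetic against WT with limma adjusted p = 0.0210, 1.49 ± 0.21 in euglycemic against WT with adjusted p = 0.00713, and 1.34 ± 0.19 in all mutant against WT with adjusted p = 0.00463. In diabetic against euglycemic it was -0.31 ± 0.19 with adjusted p = 0.375. The diabetic call was the weakest of these. It was lost without WT replicate 1, 2 or 3 (adjusted p = 0.0672, 0.0645 and 0.0644) and without diabetic replicate 1 or 3 (0.0637 and 0.0733), while the log2 fold change stayed between 0.98 and 1.28. It was also lost with no minimum FPKM (adjusted p = 0.0755) and with replicate number as a term in the fit (0.0662). The euglycemic call was lost when only the 7 libraries compared were fitted (adjusted p = 0.0667).

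*Cd9* encodes a surface tetraspanin known from gamete fusion, platelets and exosomes. It lies on chromosome 6, minus strand, from 125460266 to 125494791. Its FPKM was 3.22, 5.29 and 2.37 in WT, 11.9, 7.42, 10.2 and 9.34 in diabetic, and 23.1, 14.6, 14.3 and 9.06 in euglycemic libraries. As for *Cd81*, all 8 mutant values lay above the 3 WT values, the closest being 7.42 in diabetic replicate 2 and 5.29 in WT replicate 2. Mean FPKM was 2.68 times that of WT in diabetic and 4.20 times in euglycemic libraries. Its log2 fold change was 1.79 ± 0.29 (SE) in euglycemic against WT with limma adjusted p = 0.0161 and 1.52 ± 0.26 in all mutant against WT with adjusted p = 0.0138. In diabetic against WT it was 1.24 ± 0.29 with adjusted p = 0.0718, past the fold but not the p threshold. In diabetic against euglycemic it was -0.55 ± 0.27 with adjusted p = 0.268. Without WT replicate 3, the lowest WT library, the euglycemic value was 1.59 with adjusted p = 0.139 and that of all mutant libraries 1.31 with adjusted p = 0.126. The euglycemic call was also lost without euglycemic replicate 2 (adjusted p = 0.0576), when only the libraries compared were fitted (0.0828) and with no minimum FPKM (0.0907). The diabetic value passed the threshold without euglycemic replicate 1 (adjusted p = 0.0493) or 4 (0.0265), when only the libraries compared were fitted (0.0366) and with median-of-ratios scaling (0.0451). Without diabetic replicate 1, *Cd81* and *Cd9* were still called in euglycemic and in all mutant libraries. Of the exon bases of *Cd9* 10.7% overlap *Gm26728*, and of those of *Cd81* 3.6% overlap *R74862*, both on the opposite strand.

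Genes of other islet cells were higher in the same libraries in which *Cd81* and *Cd9* were higher. For *Gcg*, the 2 δ-cell markers and the 2 PP-cell markers, the mean of every gene was above WT in euglycemic libraries. The summed δ-cell markers were 1150 to 2472 FPKM in WT and 4775 to 13790 in the mutant libraries, and the summed PP-cell markers were 512.5 to 1107 in WT and 3674 to 14240 in the mutant libraries. The summed acinar markers were 3.48 to 33.2 FPKM in WT, 15.6 to 1969 in diabetic and 14.2 to 3589 in euglycemic libraries. The 7 macrophage markers summed to 34.5 to 43.5 in WT and 59.0 to 199.7 in the mutant libraries, with *C1qa* at 33.3 to 41.4 in WT and 53.8 to 196.0 in the mutant libraries, while *Adgre1* was at 0 in WT and at most 1.13 elsewhere. The 6 duct markers summed to 61.6 to 75.9 FPKM in WT, 63.0 to 92.0 in diabetic and 101.7 to 135.7 in euglycemic libraries. In the diabetic group the duct sums had the order of *Cd9* but not that of *Cd81*. In the euglycemic group replicates 1 and 2 were highest in the duct sum and in both genes. Most of the duct sum is *Krt7*, at 51.4 to 67.8 FPKM in WT, 40.3 to 55.5 in diabetic and 62.8 to 89.3 in euglycemic libraries. *Krt19* was at 0.505 to 0.853 in WT and 2.54 to 16.5 in the mutant libraries. *Spp1* was at 2.93 to 6.00 in WT and 11.7 to 34.8 in the mutant libraries. The δ-cell sum was lowest in euglycemic replicate 4 within its group. Euglycemic replicate 4 had the lowest *Cd81* and *Cd9* of its group and the highest acinar sum, and euglycemic replicate 3, with the highest *Gcg*, was the third in both genes. The part of other cell types in the *Cd81* and *Cd9* values was not tested.

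The sequence before the start of *Cd81* and *Cd9*, the members that were called, is shown with those of *Cd63* and *Tspan12*, which are described below and differ from them in pattern. The RefSeq promoter table for GRCm38.p6 held 26 of the 27 members in 36 windows, and the 250 bases before each start were searched for 4 short motifs on both strands. The RefSeq start of *Cd63* lies inside the gene as annotated here, which begins at 128900989, so its stretch precedes an internal start. The stretches run 5′ to 3′ on the strand of the gene, end where an annotated exon of the gene begins or at the start site, and have motif matches in capitals. *Cd81* is chr7:143052500-143052738, plus strand; *Cd9* is chr6:125494792-125495010, minus strand; *Cd63* is chr10:128909095-128909344, plus strand; and *Tspan12* is chr6:21852534-21852783, minus strand.
Cd81: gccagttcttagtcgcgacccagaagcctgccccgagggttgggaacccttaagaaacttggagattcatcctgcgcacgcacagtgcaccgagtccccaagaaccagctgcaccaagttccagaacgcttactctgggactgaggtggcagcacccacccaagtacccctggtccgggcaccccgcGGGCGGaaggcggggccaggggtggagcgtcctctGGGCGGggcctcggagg
Cd9: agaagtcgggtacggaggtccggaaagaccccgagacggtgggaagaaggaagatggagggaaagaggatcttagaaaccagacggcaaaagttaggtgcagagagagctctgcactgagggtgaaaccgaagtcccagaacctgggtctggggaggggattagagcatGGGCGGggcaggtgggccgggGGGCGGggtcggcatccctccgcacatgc
Cd63: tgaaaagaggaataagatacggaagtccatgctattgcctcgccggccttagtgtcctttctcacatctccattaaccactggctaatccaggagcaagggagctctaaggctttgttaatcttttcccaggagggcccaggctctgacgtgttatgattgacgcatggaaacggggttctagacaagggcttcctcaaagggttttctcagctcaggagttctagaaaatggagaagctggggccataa
Tspan12: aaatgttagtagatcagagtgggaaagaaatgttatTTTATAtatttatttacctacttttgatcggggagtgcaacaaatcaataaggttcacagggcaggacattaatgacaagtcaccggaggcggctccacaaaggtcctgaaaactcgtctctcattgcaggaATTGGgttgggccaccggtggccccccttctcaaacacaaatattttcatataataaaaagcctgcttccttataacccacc

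The 250-base windows of *Cd81* and *Cd9* were rich in G and C, at 65.6 and 61.6%, and each held 16 CG dinucleotides. The median over all 32851 windows was 52.4% with 6 CG dinucleotides, and over the member windows 57.8% with 9.5. Some members that were not called were richer, such as *Tspan17* at 70.8% with 22 and *Tspan13* at 66.0% with 21. Others were poorer, such as *Tspan6* at 36.0%, so the richness is not particular to the called genes. The capitals in *Cd81* and *Cd9* are GC boxes (GGGCGG), of which the whole windows hold 3 and 2, the third of *Cd81* lying 12 bases before its start and partly in an annotated exon. A GC box was found in 32.7% of all windows and in 16 of the 36 member windows. The windows of *Cd63* and *Tspan12* held 48.8 and 42.0% G and C. That of *Cd63* had no match to any of the motifs searched. The window of *Tspan12* held a TATA box (TATAAA) 214 bases before the start, beside 12.4% of all windows. It also held a CCAAT box (CCAAT) 82 bases before the start, beside 33.8%. Both matches are on the strand opposite to the gene, so the capitals read TTTATA and ATTGG. An E-box (CACGTG) was in 6.02% of all windows and in 2 of the member windows, those of *Cd37* and *Tspan4*. These are matches of letters and no evidence of binding.

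*Cd63*, a tetraspanin of lysosomes and secretory vesicles, was the 1 tested member whose diabetic and euglycemic libraries did not overlap. It lies on chromosome 10, plus strand, from 128900989 to 128912822. Its FPKM was 645.5, 404.9 and 382.8 in WT, 410.1, 561.5, 542.3 and 410.5 in diabetic, and 716.0, 901.3, 819.6 and 770.2 in euglycemic libraries. All 4 euglycemic values lay above all WT and diabetic values, and those 2 groups overlapped. Mean FPKM of euglycemic libraries was 1.68 times that of WT and 1.67 times that of diabetic libraries. The log2 fold change was 0.78 ± 0.23 (SE) in euglycemic against WT with limma adjusted p = 0.178, -0.75 ± 0.22 in diabetic against euglycemic with adjusted p = 0.132, 0.04 ± 0.23 in diabetic against WT with adjusted p = 0.974 and 0.41 ± 0.21 in all mutant against WT with adjusted p = 0.498, so *Cd63* was called in no comparison. WT replicate 1 was above the other 2 WT libraries, and without it both euglycemic comparisons passed the threshold, at 1.02 with adjusted p = 0.0268 against WT and -0.75 with adjusted p = 0.0422 for diabetic against euglycemic. Leaving out that library also raised the calls over all genes, from 62 to 532 and from 1 to 380 in these comparisons.

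*Cd151* encodes the tetraspanin that binds laminin-binding integrins. Its FPKM was 0.826, 2.83 and 1.95 in WT, 2.77, 3.14, 3.42 and 3.61 in diabetic, and 1.99, 2.07, 1.57 and 2.84 in euglycemic libraries. The diabetic libraries were high as a group, but the lowest of them was just below WT replicate 2. The log2 fold change in diabetic against WT was 0.62 ± 0.24 (SE) with limma adjusted p = 0.319, and in euglycemic against WT 0.17 ± 0.24 with adjusted p = 0.783. Without WT replicate 1, the lowest library, the diabetic value was 0.33 with adjusted p = 0.629. *Cd82*, known as a suppressor of metastasis in tumour cells, was between 5.21 and 13.3 FPKM in 10 libraries and at 29.6 in euglycemic replicate 4. It did not pass an unadjusted p of 0.05 in any comparison.

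**Figure D4:**
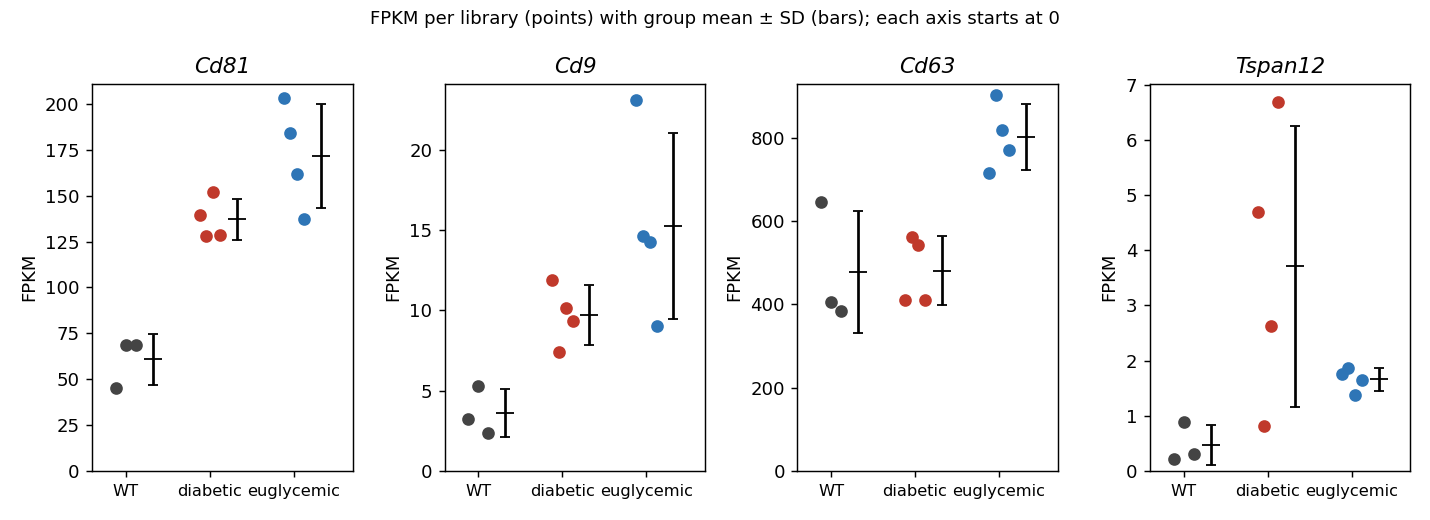
FPKM of *Cd81*, *Cd9*, *Cd63* and *Tspan12* in each library (points) with the group mean ± SD (black bars), n = 3 WT, 4 diabetic and 4 euglycemic libraries, each axis starting at 0. *Cd81* and *Cd9* are higher in both mutant groups, *Cd63* is high in the euglycemic group, and the diabetic values of *Tspan12* spread from 0.813 to 6.69.

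*Tspan12* encodes a tetraspanin that joins the Norrin receptor FZD4 and its co-receptor LRP5 in retinal vessels. The study had singled it out as dependent on *Raptor*, partly from these same libraries and partly from arrays of younger mice. Its direction here is therefore not independent evidence. The paper also reported a rise by qRT-PCR after *Raptor* was silenced in INS-1 cells. The paper, which used Cuffdiff, counted it as changed in euglycemic libraries, whereas the adjusted p-values below are from limma. *Tspan12* lies on chromosome 6, minus strand, from 21771395 to 21852515. Its FPKM was 0.224, 0.886 and 0.303 in WT, 4.70, 0.813, 2.64 and 6.69 in diabetic, and 1.76, 1.87, 1.38 and 1.65 in euglycemic libraries. Every euglycemic library was above every WT library within a narrow range, whereas the diabetic libraries were widely spread and diabetic replicate 2 lay below WT replicate 2. The log2 fold change was 1.51 ± 0.38 (SE) in diabetic against WT with limma adjusted p = 0.0978, 0.88 ± 0.38 in euglycemic against WT with adjusted p = 0.333, 1.20 ± 0.34 in all mutant against WT with adjusted p = 0.151 and 0.63 ± 0.35 in diabetic against euglycemic with adjusted p = 0.320. Because 1 was added to FPKM before the logarithm, these values are smaller than the ratios of mean FPKM, which were 7.88 in diabetic and 3.53 in euglycemic libraries against WT. With 0.1 added in place of 1 the log2 values were 2.57 and 1.80, and still not called. Without diabetic replicate 2 the diabetic value was 1.91 with adjusted p = 0.0119, and that of all mutant libraries 1.39 with adjusted p = 0.0187.

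Glucagon RNA was higher in every mutant library than in WT, but its order was not that of *Tspan12*. *Gcg* was at 866.9, 734.1 and 2116 FPKM in WT, at 9077, 4571, 3432 and 14073 in diabetic, and at 4093, 7786, 22921 and 10225 in euglycemic libraries. The highest *Tspan12* value, in diabetic replicate 4, came with the highest *Gcg* of that group, while euglycemic replicate 3 had the most *Gcg* of all and a *Tspan12* FPKM of 1.38. The endothelial markers summed to 1.68 to 4.10 in WT and 1.40 to 4.54 in euglycemic libraries. In the diabetic libraries they were 51.4, 8.32, 10.4 and 16.1. The part of α-cell or endothelial RNA in the *Tspan12* values was not tested. Of its partners in the Norrin receptor complex, *Fzd4* was at or below 0.864 FPKM and *Lrp5* at or below 0.342 in every library, and *Ndp*, the gene of Norrin, was above 0 only in diabetic replicate 1, at 0.0958. *Lrp6*, the relative of *Lrp5*, was at 0.923 to 2.18 FPKM.

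The TspanC8 tetraspanins, named for the cysteines of their large loop, bind the protease ADAM10 and steer it to its substrates. They are *Tspan5*, *Tspan10*, *Tspan14*, *Tspan15*, *Tspan17* and *Tspan33*, and 5 of the 6 were tested. None was called with limma in any comparison, and *Tspan17* alone passed an unadjusted p of 0.05. Their log2 fold changes lay between -0.51 and 0.24 in diabetic and between -0.27 and 0.50 in euglycemic against WT. *Tspan15* was the most abundant, at 48.4 to 58.9 FPKM in WT, 48.2 to 78.3 in diabetic and 55.6 to 98.7 in euglycemic libraries. *Tspan33* was at 7.54 to 16.1 FPKM, *Tspan5* at 5.05 to 9.34 and *Tspan14* at 2.40 to 7.50 over all libraries. *Tspan10* was listed at 0 throughout.

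*Tspan17*, a TspanC8 member, was lower in every diabetic library than in WT. It lies on chromosome 13, plus strand, from 54789377 to 54796776. Its FPKM was 6.87, 7.01 and 5.88 in WT, 4.68, 4.26, 4.48 and 3.91 in diabetic, and 6.72, 5.71, 5.26 and 3.75 in euglycemic libraries. The diabetic values were close together, and the euglycemic libraries spanned both ranges. The log2 fold change in diabetic against WT was -0.51 ± 0.19 (SE) with limma adjusted p = 0.298, and in euglycemic against WT -0.27 ± 0.19 with adjusted p = 0.539. With all mutant libraries against WT it was -0.39 ± 0.17 with adjusted p = 0.411. *Adam10* itself was at 2.03 to 4.11 FPKM in WT and 1.08 to 5.32 in the mutant libraries.

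Of the abundant members without a role in those groups, none was called. *Tspan3*, which is widespread across tissues, was at 335.7, 249.8 and 225.1 FPKM in WT, at 205.9 to 320.1 in diabetic and at 177.6 to 384.4 in euglycemic libraries, and the groups overlapped. Its log2 fold change was -0.04 ± 0.28 (SE) in diabetic against WT with limma adjusted p = 0.979, with the opposite sign, 0.04, when FPKM was rescaled to TPM, and 0.09 ± 0.28 in euglycemic against WT with adjusted p = 0.902. *Tspan13* was at 329.3, 251.8 and 243.8 FPKM in WT, 200.7 to 271.6 in diabetic and 212.1 to 345.4 in euglycemic libraries. Its log2 fold change was -0.23 ± 0.22 in diabetic against WT with adjusted p = 0.754 and 0.07 ± 0.22 in euglycemic against WT with adjusted p = 0.915. *Tspan31* was at 119.3, 92.2 and 95.1 FPKM in WT, 96.1, 84.5, 109.5 and 105.9 in diabetic, and 156.7, 161.0, 119.0 and 106.9 in euglycemic libraries. The euglycemic libraries reached the highest values, and euglycemic replicate 4 lay within the range of the diabetic group. Its log2 fold change was -0.44 ± 0.19 in diabetic against euglycemic with adjusted p = 0.217 and 0.40 ± 0.20 in euglycemic against WT with adjusted p = 0.410. *Tspan31* lies beside *Cdk4* on the opposite strand, and 29.2% of its exon bases overlap exons of that gene. The library method given in the paper names no step that marks the strand, so fragments in the overlap may belong to either gene.

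*Tspan6*, an X-linked member found on endosomes and exosomes, was at 3.86, 3.18 and 1.78 FPKM in WT, 2.60, 3.08, 4.85 and 4.17 in diabetic, and 6.29, 5.06, 4.55 and 3.57 in euglycemic libraries. All euglycemic values but that of replicate 4 were above the WT values. Its log2 fold change was 0.59 ± 0.25 (SE) in euglycemic against WT with limma adjusted p = 0.316 and 0.26 ± 0.25 in diabetic against WT with adjusted p = 0.751. Without WT replicate 3 these values were 0.36 and 0.027. *Tspan7* was steady, at 29.9 to 37.5 FPKM in WT, 26.1 to 33.1 in diabetic and 24.3 to 36.7 in euglycemic libraries. *Tspan8* was at 14.3 to 22.8 FPKM in WT, 17.3 to 55.0 in diabetic and 13.5 to 53.2 in euglycemic libraries, and diabetic replicate 4 and euglycemic replicates 1 and 3 were at 52.7 or more. *Tspan2*, known from oligodendrocytes, was at 20.6 FPKM in WT replicate 1 and at 2.46 and 2.34 in the other WT libraries, so its WT mean rests on 1 library. *Tspan9*, known from platelets, was at 1.09 to 3.80 FPKM over all libraries, and *Tspan4*, known from migrasomes, at 0.316 to 2.96.

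The 3 tetraspanins restricted to blood cells, *Cd37*, *Cd53* and *Tspan32*, were near or at 0. All 3 were at 0 in every WT library. *Cd53* was at 2.13 FPKM in diabetic replicate 1, at 0.0587 in diabetic replicate 2, at 0.155 in euglycemic replicate 2 and at 0 elsewhere. *Cd37* at 0.109 FPKM and *Tspan32* at 0.0997 were above 0 only in diabetic replicate 1. In that library the leukocyte markers summed to 1.54 FPKM and the T cell markers to 0.486, where the other 10 libraries were at most at 0.574 and 0.0265. That was not particular to blood cells. The mesenchyme markers summed to 11.05 there against at most 1.73 elsewhere, and the endothelial markers to 51.4 against at most 16.1. The B cell markers were highest there too, while the macrophage and acinar sums were highest in other libraries. *Tspan11* and *Tspan18* were at most at 0.182 and 0.380 FPKM, both in diabetic replicate 1, and *Tspan1* was at most at 1.29, in diabetic replicate 4. *Cd37*, *Cd53*, *Tspan11* and *Tspan32* were above 0 in at most 3 of the 11 libraries, too few for an exact test to be informative. For *Tspan1* and *Tspan18*, exact permutation tests on log2(FPKM + 1), two-sided, gave p between 0.229 and 0.897 over the 4 comparisons. When limma was fitted with no minimum, the smallest adjusted p of these members was 0.547.

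Other proteins that act with tetraspanins were followed in a list of 26 partner genes, of which 15 were tested. None was called in any of the 4 comparisons with limma, and in each comparison 2 of 15 reached 0.05 without adjustment, beside 11.9, 13.9, 20.6 and 11.3% of all genes in diabetic and euglycemic against WT, diabetic against euglycemic and all mutant against WT. Their median log2 fold change was 0.19 in diabetic and 0.03 in euglycemic against WT. *Sdc4*, a syndecan whose vesicle sorting runs with CD63 through syntenin, was at 33.3, 28.4 and 31.2 FPKM in WT, 54.6, 54.1, 59.4 and 56.8 in diabetic, and 41.2, 38.1, 76.5 and 44.0 in euglycemic libraries. All mutant values lay above the WT values. Its log2 fold change was 0.84 ± 0.23 (SE) in diabetic against WT with adjusted p = 0.123, 0.62 ± 0.23 in euglycemic against WT with adjusted p = 0.254 and 0.73 ± 0.20 in all mutant against WT with adjusted p = 0.132. *Epcam*, an epithelial adhesion protein that associates with tetraspanins and claudin-7, was at 118.9 to 225.7 FPKM in WT and 202.8 to 358.3 in euglycemic libraries, a log2 fold change of 0.81 ± 0.28 with adjusted p = 0.238. *Itgb1*, the β1 integrin, was at 31.6 to 35.8 FPKM in WT and 38.2 to 54.3 in diabetic libraries without overlap, a log2 fold change of 0.41 ± 0.18 with adjusted p = 0.412.

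Between diabetic and euglycemic libraries the partners below that unadjusted p were *Itga3* and *Cd44*. *Itga3*, the α3 integrin that binds CD151, was at 3.50 to 4.38 FPKM in diabetic and 2.04 to 3.04 in euglycemic libraries, a log2 difference of 0.47 ± 0.21 (SE) with limma adjusted p = 0.235. *Cd44*, a hyaluronan receptor, was at 2.53 to 5.57 FPKM in diabetic and 0.227 to 2.71 in euglycemic libraries, a log2 difference of 1.0 ± 0.34 with adjusted p = 0.154. *Igsf8*, the EWI protein that binds CD9 and CD81, was at 4.74 to 7.16 FPKM in WT and 4.96 to 8.30 in the mutant libraries, while its relative *Ptgfrn* was at most at 0.125 in any library. *Cr2*, a complement receptor that associates with CD81 on B cells, was above 0 only in diabetic replicate 1, at 0.237 FPKM.

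Of the superfamily genes outside the Tspan and Cd symbols, *Rom1*, known from photoreceptors, was at 5.88 to 12.6 FPKM, and *Upk1a*, *Upk1b* and *Prph2* were at most at 1.05. The members lie on 12 chromosomes. There are 4 pairs of close neighbours, *Cd151* and *Tspan4* at 3.8 kb, *Tspan11* and *Tspan9* at 7.4 kb, *Tspan32* and *Cd81* at 33.1 kb and *Tspan18* and *Cd82* at 84.6 kb. In the last 2 pairs the levels were far apart, since *Tspan32* was at 0 in 10 libraries that had 45.0 FPKM or more of *Cd81*, and *Tspan18* was at most at 0.380 where *Cd82* was at 5.21 or more.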

How the data were processed

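RNA of GFP+ islet cells was measured in 11 libraries, 3 WT, 4 diabetic and 4 euglycemic. The authors deposited 1 table of FPKM values on mm10, made according to the methods with Tophat v2.1.0 and Cufflinks v2.1.1, whereas the submitters' processing notes name HISAT2 2.0.4, StringTie 1.3.0 and edgeR. Fragment totals do not accompany the deposited FPKM, so depth was inferred from the step size of low values. Of 34745 entries 34267 were matched to a symbol and 478 were not. Where a symbol was repeated, 17 entries of lower mean were dropped.

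All 11 libraries were fitted together with limma 3.58.1 in R 4.3.3 (lmFit, eBayes with a trend) on log2(FPKM + 1), without further normalization. The minimum was an FPKM of 1 in 3 libraries. Genes under the minimum had exact permutation tests. Values are printed in full, with log2 fold change, SE and adjusted p, for members with an unadjusted p of at most 0.05 in any comparison and for the 5 of highest mean. The members, role lists, partner list and markers were chosen with earlier results of these data known. Coordinates are from GENCODE vM21 (GRCm38), and overlaps with other genes were counted on exon bases. Alternatives were other minimums, a pseudocount of 0.1, TPM, median of ratios, a fit of the compared groups alone, library weights, no trend, a replicate block, no fold criterion and leaving out each library. Protein sequences and the authors' alignments were not used here. Single-gene results of a few marker and partner genes are not reported here.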

Additional observations from a re-analysis of the deposited data

Results flagged for a closer look

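In the diabetic and euglycemic groups, 50 sets of 4 values of a tetraspanin gene were not all the same and could be checked for a library far from the other 3, by Dixon's criterion on log2(FPKM + 1). This picked out 6 values. Chance alone picks about 1 set in 20, but that rate does not apply to 4 of the 6, where the other 3 libraries were at 0 and any value above 0 had to stand out. In 5 of them the library was diabetic replicate 1. *Tspan2* was at 8.23 FPKM there and at 1.75 to 2.13 in the other diabetic libraries, and *Cd53* was at 2.13 against at most 0.0587. *Cd37* at 0.109, *Tspan11* at 0.182 and *Tspan32* at 0.0997 FPKM were at 0 in the other 3. The sixth was *Cd53* in euglycemic replicate 2, at 0.155 FPKM with the other euglycemic libraries at 0. WT, with 3 libraries, was not checked this way. No tested member differed between diabetic and euglycemic libraries at an adjusted p of 0.05 with limma.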

How the results depend on the processing

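Of 800 recomputed log2 fold changes of the named tetraspanin genes, 740 kept their direction and their side of the threshold, 14 lost a call, 16 gained a call and 30 changed sign, the last all in values not called as reported. The tetraspanin genes called in diabetic against WT, 1 as reported, were 0 with no minimum FPKM and with the replicate block, 2 with median of ratios and with only the groups compared, 3 with library weights, and 0 to 2 with a library left out. In euglycemic against WT, 2 as reported, they were 1 with no minimum, 0 with only the groups compared, 7 with library weights and 1 to 3 with a library left out. In all mutant against WT they were 1 with no minimum, 4 with library weights and 1 to 3 with a library left out. In diabetic against euglycemic they were 1 with library weights and 0 to 1 with a library left out, *Cd63* both times. Partner genes called, 0 as reported, were 1, 2, 1 and 2 with library weights in diabetic against WT, euglycemic against WT, diabetic against euglycemic and all mutant against WT, and 0 to 1 with a library left out in diabetic and in euglycemic against WT. The calls over all genes moved as well. In euglycemic against WT they went from 62 to 13 with no minimum, 17 with only the groups compared and 2287 with library weights, and in diabetic against WT from 109 to 22, 149 and 551. In all mutant against WT they went from 118 to 23 with no minimum and 1116 with library weights, and in diabetic against euglycemic from 1 to 1212 with library weights. The cause of these shifts was not tested. The calls of *Cd81* and *Cd9* in all mutant against WT were kept in 9 and 8 of the 9 other settings, *Cd9* being lost with no minimum.

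The replicate block, with number as a term, took the diabetic call of *Cd81* to adjusted p = 0.0662 (limma) and all genes called from 109 to 45. Libraries with the same number did not deviate together (mean r -0.132 over 10 pairs, 0.0433 for 30 pairs with different numbers), so the numbers were not taken as pairs.

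Sign changes were small. In diabetic against WT, *Tspan3* was 0.042 with TPM, 0.13 with library weights, 0.026 with the replicate block and -0.16 to 0.13 with a library left out, *Tspan31* was 0.035 with TPM, 0.090 with library weights and -0.11 to 0.073 with a library left out, and *Cd63* was -0.10 to 0.27. In euglycemic against WT, *Cd151* was -0.18 with library weights and -0.12 to 0.41 with a library left out, *Tspan13* -0.026 to 0.21 and *Tspan3* -0.050 to 0.32. In all mutant against WT, *Tspan13* was 0.12 with library weights and -0.16 to 0.055 with a library left out, and *Tspan3* was -0.092 to 0.20. *Tspan3* in diabetic against euglycemic was -0.36 to 0.014. Among members under the minimum 0 tests passed 0.05, by the exact test or by limma, though many of them had too few libraries above 0 to pass. Depth limits members below about 0.1 FPKM, where a value rests on few fragments.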
